A study of Mus musculus with 6 samples.

Results

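To ask whether the genes of dietary fat absorption differed in colon after deletion of NSD2, 10 genes were examined in the RNA-seq libraries of the series. They were chosen by name for their roles in fatty acid uptake and binding (Cd36, Fabp1 and Fabp2), triglyceride resynthesis (Mogat2, Dgat1 and Dgat2) and lipoprotein assembly (Apob, Mttp, Apoa1 and Apoa4). All 10 were among the 24517 genes of the count tables. The series held 6 colon libraries, 3 from NSD2fl/fl mice and 3 from NSD2∆IE mice. In NSD2fl/fl mice both copies of the gene for the histone methyltransferase NSD2 are flanked by loxP sites and intact. In NSD2∆IE mice the same floxed gene is deleted by a Cre recombinase driven by the Villin promoter, which is active in intestinal epithelium. Other cells of the colon wall keep the gene. Both groups carried the floxed allele and were fed HFCD, a diet high in fat and cholesterol, during 16 weeks as labelled. The study's text gives a longer time on this diet for the mice of the RNA-seq. A group on normal diet was not analysed here, so no effect of the diet itself can be read from these values. The animal behind each library and its age were not given in the labels, and p-values measure the spread between these samples.

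Dietary triglyceride is split in the gut lumen, and enterocytes take up fatty acids and monoacylglycerol. Cytosolic fatty acid binding proteins carry the fatty acids, MOGAT2 and the DGAT enzymes rebuild triglyceride at the endoplasmic reticulum, and MTTP loads it onto apolipoprotein B to form chylomicrons that leave through lymph. This route is best known from the proximal small intestine, and the colon is not a main site of fat absorption.

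Library totals lay between 38041832 and 38604680 counts, and 16347 genes passed a filter on low counts and were tested. Nsd2 was lower in all 3 NSD2∆IE libraries (914 to 1139 counts) than in all 3 NSD2fl/fl libraries (1840 to 2455 counts). The libraries labelled NSD2∆IE had 21217 to 24234 counts of Xist, made by female cells, and at most 1 count over 4 Y-linked genes. Libraries labelled NSD2fl/fl had at most 4 counts of Xist and 5058 to 6110 Y-linked counts, so genotype and this pattern of female or male tissue cannot be told apart anywhere below. The study's methods describe male littermates. Epithelial tissue was present in every library (Epcam, 51152 to 66325 counts). A second difference crossed the genotypes. Hoxb13, a homeobox gene of the most posterior gut, was counted 14052, 25 and 12125 times in NSD2fl/fl and 12288, 197 and 1086 times in NSD2∆IE, in order of replicate. The first principal component of expression, computed without the genes of fat absorption, put the same 3 libraries, NSD2fl/fl replicate 2 and NSD2∆IE replicates 2 and 3, on 1 side and held 50.8% of the variance. The labels gave no batch or position along the colon for this difference.

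Levels per gene length (FPKM, a count divided by the gene's length and by its library's total) set the 10 genes in a wide order. Fabp2 stood far above the others with a mean of 528 FPKM over the 6 libraries. Dgat2 followed with 31.4 FPKM, Dgat1 with 12.5 FPKM, Apob with 11.8 FPKM and Cd36 with 3.94 FPKM. Mogat2 had 1.58 FPKM, Fabp1 1.15 FPKM, Mttp 0.397 FPKM, Apoa1 0.298 FPKM and Apoa4 0.0416 FPKM. Dgat2 exceeded Dgat1 in all 6 libraries, from 16.1 to 47.7 FPKM against 9.90 to 14.1 FPKM. Dgat1 and Apob could not be placed in order beyond their spread, since Apob ranged from 6.93 to 20.4 FPKM. Neither could Mogat2 (0.178 to 3.28 FPKM) and Fabp1 (0.0513 to 2.59 FPKM). Both genes overlapped Mttp (0.252 to 0.544 FPKM) and Apoa1 (0 to 0.787 FPKM) as well. Fabp2, Dgat2, Dgat1 and Apob were thus the genes with a level above 5 FPKM in every library, and Mttp, Apoa1 and Apoa4 stayed below 1 FPKM in every library.

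**Figure D1:**
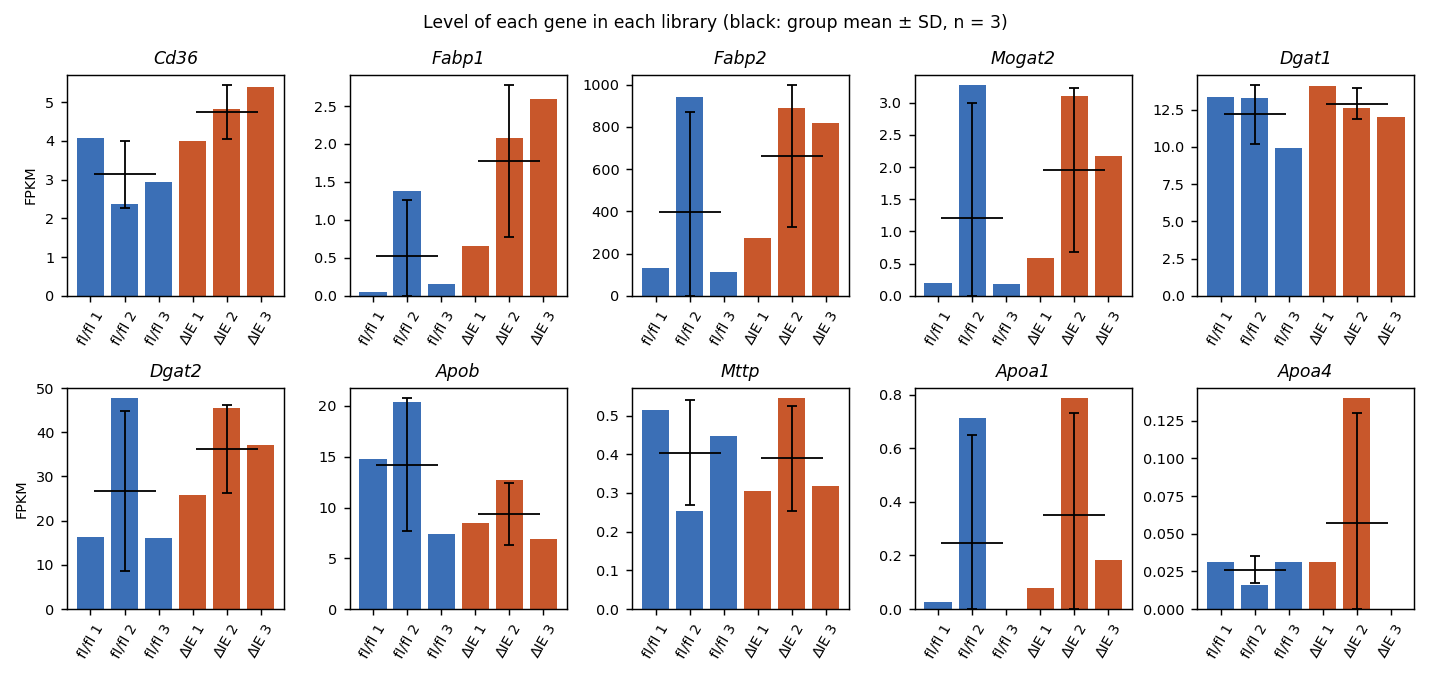
Level of each of the 10 genes in each of the 6 libraries, as FPKM on a linear axis from 0, with NSD2fl/fl libraries in blue and NSD2∆IE libraries in orange. Black marks are the group mean ± SD (n = 3), with the lower end stopped at 0; Fabp2, Mogat2 and Dgat2 are high in NSD2fl/fl replicate 2 as well as in NSD2∆IE replicates 2 and 3.

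Fabp2 and Fabp1 encode the intestinal and the liver type of fatty acid binding protein. The sequence before each start site is shown because the transcripts of both genes varied together between libraries, as described next. Both stretches are from RefSeq on GRCm38.p6 (mm10), plus strand, and end before the annotated transcripts. Capitals mark matches to a CDX site (TTTATNG) and to the nuclear receptor half-site (AGGTCA), on either strand.
Fabp1, chr6:71199629-71199826: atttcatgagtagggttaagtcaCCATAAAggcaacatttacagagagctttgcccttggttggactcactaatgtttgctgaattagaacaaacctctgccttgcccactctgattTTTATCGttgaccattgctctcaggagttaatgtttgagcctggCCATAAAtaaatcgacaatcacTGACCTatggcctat
Fabp2, chr3:122894822-122895071: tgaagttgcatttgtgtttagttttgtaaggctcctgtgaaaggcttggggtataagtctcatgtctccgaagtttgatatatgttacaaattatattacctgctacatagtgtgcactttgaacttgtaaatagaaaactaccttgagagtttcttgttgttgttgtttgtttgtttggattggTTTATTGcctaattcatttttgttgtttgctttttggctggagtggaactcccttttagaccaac

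In the full window of 250 bases before to 50 after the start site, Fabp1 held 3 matches to the CDX site and 2 to the half-site. It also held 1 TATA box (TATAAA) 30 bases before the start site of this window. For Fabp1 that site lies after the GENCODE gene start, where the printed stretch ends. The TATA box and 1 of the half-sites thus fall beyond the printed stretch. Fabp2 held 1 CDX match and neither of the others. Of 32817 such windows, 10.9% held a CDX match, 16.3% a half-site and 13.6% a TATA box. The CDX motif read on the other strand can overlap the TATA box by 6 bases. RefSeq windows were found for 7 of the 10 genes, not for Mogat2, Dgat1 and Dgat2. Apob held 1 CDX match that overlaps its TATA box, Cd36 held 1 half-site, and Mttp, Apoa1 and Apoa4 held none of these letters. The HNF4 element (CAAAGTCCA) was in 0.475% of all windows and a GATA site (AGATAA) in 11.2%, and neither was in any of the 7. A match describes letters and does not show that a factor binds there.

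Fabp2 (chr3:122895072-122899506) spanned an 8.67-fold range between libraries. In counts scaled to the library total by TMM factors (CPM), it had 124.6, 986 and 114 in NSD2fl/fl replicates 1 to 3 and 257, 836 and 733 in NSD2∆IE replicates 1 to 3. The highest and the lowest library were both NSD2fl/fl, and the groups overlapped fully. The log2 fold change of NSD2∆IE over NSD2fl/fl was 0.58 (SE 0.902, 95% interval -1.57 to 2.72, adjusted p = 0.835). Without NSD2fl/fl replicate 2 it was 2.35, and without NSD2fl/fl replicate 3 it was 0.13.

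Fabp1 (chr6:71199827-71205023) followed Fabp2 at a far lower level. It had 1, 27 and 3 counts in NSD2fl/fl and 13, 41 and 51 counts in NSD2∆IE, in order of replicate. Counts of 3 or fewer are no firmer than a count of 0 at this depth, where 3 counts correspond to between 0.0723 and 0.0848 CPM. NSD2fl/fl replicate 2 again lay within the NSD2∆IE values. The fitted log2 fold change was 1.57 (SE 1.06, 95% interval -0.95 to 4.10, adjusted p = 0.634). Leaving out NSD2fl/fl replicate 2 gave 3.92, leaving out replicate 3 gave 1.14 and leaving out replicate 1 gave 1.02.

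Cd36 (chr5:17781690-17888801) encodes a fatty acid translocase of enterocytes that is also made by adipocytes, capillary endothelium and macrophages. Its levels were 16.3, 10.5 and 12.8 CPM in NSD2fl/fl and 15.8, 19.1 and 20.2 CPM in NSD2∆IE. Only NSD2fl/fl replicate 1 lay above an NSD2∆IE library, replicate 1. The mean was 13.2 ± 2.96 CPM against 18.4 ± 2.33 CPM (SD, n = 3 per group). Fitted by edgeR, NSD2∆IE exceeded NSD2fl/fl by 0.48 (log2, SE 0.2, 95% interval 0.0021 to 0.95), with an unadjusted p = 0.0492 and adjusted p = 0.446. Each of 16 alternative fits gave a positive value, and 9 of them an unadjusted p under 0.05. Leaving out NSD2fl/fl replicate 2 or 3, or NSD2∆IE replicate 2 or 3, put that p at 0.108 to 0.146.

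Marker lists of the cells that also make Cd36 were read in the same libraries. Of 10 adipocyte markers, 9 were tested, all 9 had a fold change above 0, and 5 of them rose by more than 0.32 (log2) at an unadjusted p under 0.05. Their summed level was 41.9 to 51.6 CPM in NSD2fl/fl and 78.4 to 165 CPM in NSD2∆IE. Adipoq had 14, 0 and 78 counts in NSD2fl/fl and 102, 150 and 427 counts in NSD2∆IE, and Lep had at most 14 counts in any library. Endothelial markers summed to 195 to 235 CPM against 213 to 250.9 CPM, with 9 of 10 above 0 in fold change and 1 of 10 past the same threshold. Macrophage markers summed to 576 to 846 CPM against 690 to 834 CPM, with 7 of 10 above 0 and 1 of 10 past the threshold. Smooth muscle markers, which bear on how much of the wall a piece held, summed to 1681 to 4428 CPM against 5527 to 11888 CPM, with 9 of 10 past it. Over all genes tested, 8.05% were higher at that threshold, so 1 of 10 is near this share. Higher in every NSD2∆IE library were 6 of the 9 adipocyte, 4 of 10 endothelial (Tie1, Tek, Emcn and Esam) and 1 of 10 macrophage markers. Over all genes tested that share was 11.4%. The part of these cells in the Cd36 values was not tested. In whole tissue, fewer cells of a type and less RNA per cell cannot be told apart.

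Mogat2 and Dgat2 encode related enzymes that act in turn, first adding a fatty acid to monoacylglycerol and then completing triglyceride. They lie side by side on the minus strand of chromosome 7 (chr7:99219084-99238619 and chr7:99153658-99182719), 36.4 kb apart with no protein-coding gene between them. Mogat2 had 14, 241 and 13 counts in NSD2fl/fl and 43, 230 and 160 counts in NSD2∆IE. Its range between libraries, 18.7-fold, was the widest that could be computed among the 10 genes, and both ends of it were NSD2fl/fl libraries. The log2 fold change was 0.51 (SE 1.18, 95% interval -2.30 to 3.33, adjusted p = 0.892). Leaving out NSD2fl/fl replicate 2 gave 3.29, and leaving out NSD2∆IE replicate 2 gave -0.022.

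Dgat2 had 36.4, 116 and 38.7 CPM in NSD2fl/fl and 56.3, 99.9 and 77.5 CPM in NSD2∆IE. Its libraries stood in the order of Mogat2, with NSD2fl/fl replicate 2 highest, then NSD2∆IE replicates 2, 3 and 1, then the other 2 NSD2fl/fl libraries. The spread was smaller, 3.19-fold. The log2 fold change was 0.29 (SE 0.478, 95% interval -0.85 to 1.43, adjusted p = 0.843), and 1.05 without NSD2fl/fl replicate 2.

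Dgat1 (chr15:76502015-76511953), an enzyme of the same final step from a different protein family, hardly varied. It had 35.5, 38.9 and 28.5 CPM in NSD2fl/fl and 37, 33.1 and 30.1 CPM in NSD2∆IE. The log2 fold change was -0.04 (SE 0.151, adjusted p = 0.935), and its interval of -0.40 to 0.32 was the narrowest of the 8 tested genes. The sign turned with the scaling, being 0.084 with library totals alone. The ratio of Dgat2 to Dgat1 in FPKM was 1.23, 3.58 and 1.62 in NSD2fl/fl and 1.83, 3.62 and 3.09 in NSD2∆IE, so the balance of the 2 enzymes differed between libraries of 1 genotype as much as between genotypes.

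Apob (chr12:7977648-8016835), the structural protein of chylomicrons, was the only member of its group at a substantial level. It had 204 CPM, 308 CPM and 109.7 CPM in NSD2fl/fl and 114 CPM, 173 CPM and 89.5 CPM in NSD2∆IE. The mean was 208 ± 99.4 CPM against 125.8 ± 43.1 CPM (SD, n = 3 per group), and NSD2fl/fl replicate 3 lay below 2 of the NSD2∆IE libraries. Fitted by edgeR, the log2 fold change was -0.72 (SE 0.403, 95% interval -1.68 to 0.24), with an unadjusted p = 0.117 and adjusted p = 0.567. It was negative in all 16 alternatives, from -1.03 without NSD2fl/fl replicate 3 to -0.32 without NSD2fl/fl replicate 2.

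Mttp (chr3:138089854-138144968), which loads lipid onto ApoB, had only 93, 46 and 81 counts in NSD2fl/fl and 56, 100 and 58 counts in NSD2∆IE. The groups overlapped, and the log2 fold change was -0.17 (SE 0.383, 95% interval -1.08 to 0.74, adjusted p = 0.89). Without NSD2∆IE replicate 2 it was -0.51 and without NSD2fl/fl replicate 1 it was -0.0078. In FPKM, Apob was 16.4 to 80.9 times as high as Mttp within a library. Exons of Mttp overlap Trmt10a on the other strand, and whether counting used strand is not given in the sources used here, so some of these few reads may belong to that gene.

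Apoa1 and Apoa4 encode surface apolipoproteins of chylomicrons and lie in 1 cluster on chromosome 9 (chr9:46228580-46230466 and chr9:46240696-46243459) with Apoc3 between them. Apoa1 had 1, 27 and 0 counts in NSD2fl/fl and 3, 30 and 7 counts in NSD2∆IE. Its 2 highest libraries, NSD2fl/fl replicate 2 and NSD2∆IE replicate 2, were those with the highest Fabp2. Apoa4 had 2, 1 and 2 counts in NSD2fl/fl and 2, 9 and 0 counts in NSD2∆IE, and its exons overlap antisense transcripts. Both genes failed the filter on low counts and were not tested. Apoc3, Apoa5 (2 to 12 counts) and Apoc2 (0 to 4 counts), further chylomicron apolipoproteins of the wider list, were also below it. Apoc3 had 7, 6 and 1 counts in NSD2fl/fl and 0, 1 and 0 counts in NSD2∆IE. A difference between the genotypes in these 5 genes was not tested in the main fit.

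Of the 8 tested genes, 0 had an adjusted p under 0.05 (edgeR), against 0.0306% of all genes tested, and 1 had an unadjusted p under 0.05. DESeq2 also gave 0 of 8, where it called 2.79% of all genes. At a looser threshold, a log2 change beyond 0.32 in size and an unadjusted p under 0.05, 1 gene, Cd36, was higher in NSD2∆IE, and 0 were lower. Among all genes tested, 8.05% were higher and 2.21% lower at that threshold, so 1 higher gene of 8 is near the background. None of the 8 separated the groups without overlap, where 11.4% of all genes lay higher in every NSD2∆IE library and 7.28% lower. The median log2 fold change of the 8 genes was 0.38, with 5 above 0 and 3 below, beside -0.041 over all genes. Without NSD2fl/fl replicate 1 the median was 0.0034, and without NSD2fl/fl replicate 2 it was 0.69. Intervals this wide do not show that the genes were alike in the 2 genotypes.

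**Figure D2:**
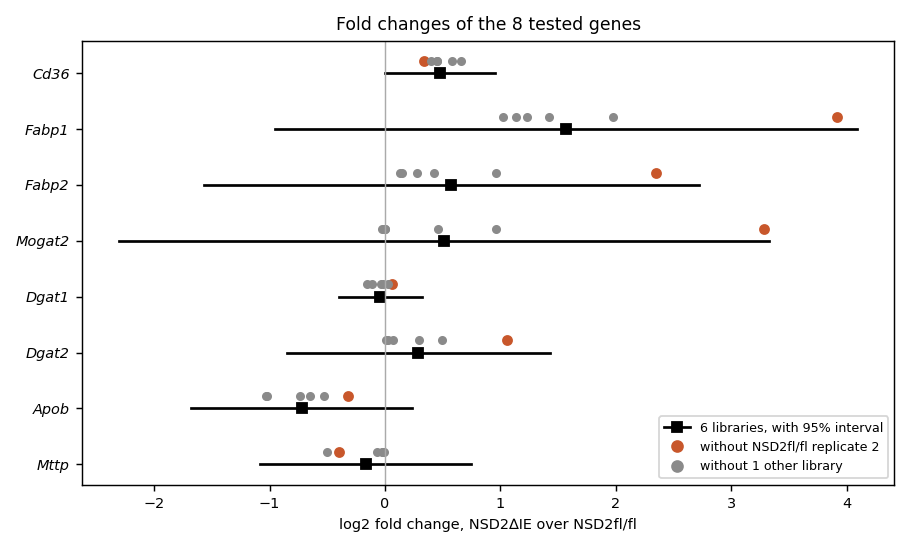
Log2 fold change of NSD2∆IE over NSD2fl/fl for the 8 tested genes. Black squares with bars are the fit of all 6 libraries with its 95% interval, orange points leave out NSD2fl/fl replicate 2 and grey points leave out 1 other library; the orange points of Fabp1, Fabp2, Mogat2 and Dgat2 lie between 1.05 and 3.92.

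For Fabp2, Mogat2, Dgat2 and Dgat1 the highest and the lowest library were both NSD2fl/fl, and for Cd36, Fabp1, Apob and Mttp they were of different genotypes. The SD of log2 CPM over the 6 libraries was 1.86 for Mogat2, 1.67 for Fabp1 and 1.41 for Fabp2, larger than in 98.7%, 98.4% and 97.5% of all genes tested. For Dgat2 it was 0.7, for Apob 0.668, for Mttp 0.436, for Cd36 0.358 and for Dgat1 0.174, the last larger than in 27.4% of genes. Fabp2, Mogat2, Dgat2 and Fabp1, 4 of the 8 tested genes, had their 3 highest values in NSD2fl/fl replicate 2 and NSD2∆IE replicates 2 and 3, the libraries of low Hoxb13. This pattern was looked for after the values were seen. It was present in 9.55% of all genes tested.

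The 3 libraries that were high for these 4 genes did not carry a single genotype, so the genotypes were also set side by side on each side of the principal component, as values with no test. Among the libraries of high Hoxb13, Fabp2 was 2.16 times as high in NSD2∆IE replicate 1 as in the mean of NSD2fl/fl replicates 1 and 3. Among those of low Hoxb13, the mean of NSD2∆IE replicates 2 and 3 was 0.796 times NSD2fl/fl replicate 2. Mogat2 gave 2.98 and 0.709, and Dgat2 gave 1.5 and 0.763, in the same order. These 3 genes were higher in NSD2∆IE on the first side and lower on the second. Fabp1 was not lower on either, with 13 counts against 1 and 3 counts on the first side, too few for a ratio, and 1.48 on the second. Apob was lower on both, at 0.728 and 0.426, and Cd36 was higher on both, at 1.08 and 1.88. On the first side both overlapped. Apob had 114 CPM in NSD2∆IE replicate 1, above the 109.7 CPM of NSD2fl/fl replicate 3. Cd36 had 15.8 CPM there, below the 16.3 CPM of NSD2fl/fl replicate 1. Dgat1 gave 1.15 and 0.812 and Mttp gave 0.603 and 1.51. With the side as a covariate in the fit, Apob had a log2 fold change of -0.84 (unadjusted p = 0.0428), Cd36 of 0.51 (unadjusted p = 0.0596), Fabp1 of 1.22 (unadjusted p = 0.0676) and Fabp2 of 0.39 (unadjusted p = 0.233), and no member had an adjusted p under 0.05.

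**Figure D3:**
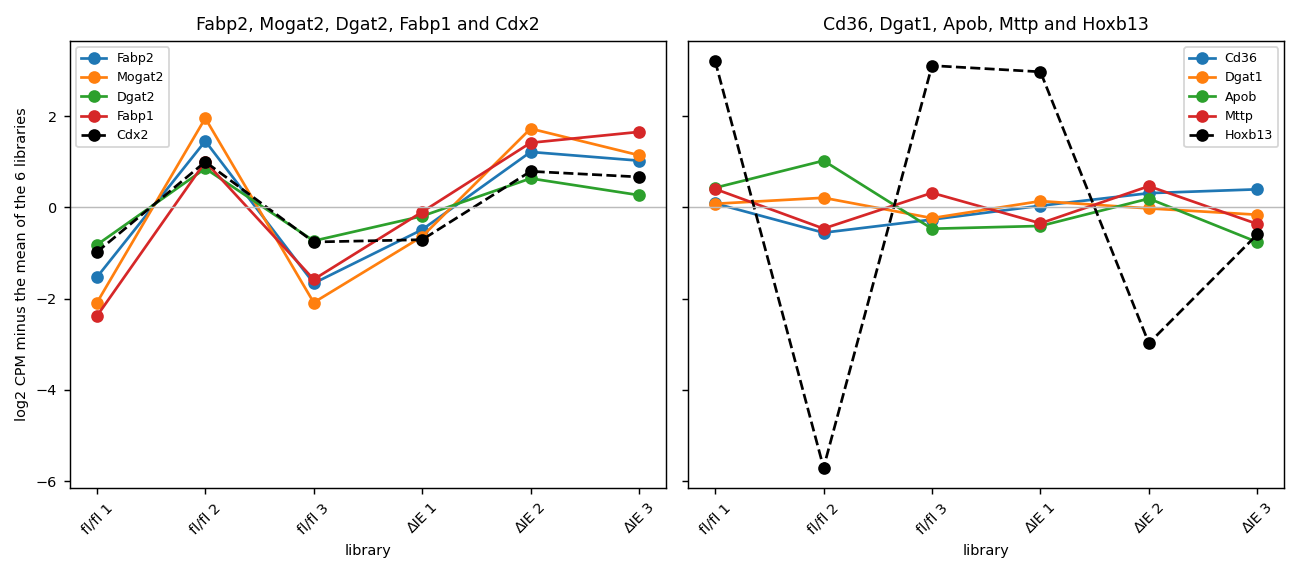
Log2 CPM of each gene minus its mean over the 6 libraries, with lines that join the points of 1 gene and imply no order of the libraries. At left, Fabp2, Mogat2, Dgat2 and Fabp1 are high where Cdx2 (dashed) is high, in NSD2fl/fl replicate 2 and NSD2∆IE replicates 2 and 3; at right, Cd36, Dgat1, Apob and Mttp are shown with Hoxb13 (dashed), which is low in those libraries.

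Other genes of the route were read for the same pattern, which had been chosen after the values of the members were seen. Of 52 further genes, 48 were tested, and 13 of these (27.1%) had their 3 highest values in the same 3 libraries. That was so in 9.55% of all genes tested, and the difference was not tested. Another 5 of the 48 had their 3 lowest values there, as did 2098 of all 16347 genes tested. The 13 genes included Slc27a4, a fatty acid transport protein and acyl-CoA synthetase. It had 64.2 CPM, 157 CPM and 55.5 CPM in NSD2fl/fl and 72.6 CPM, 142 CPM and 99.3 CPM in NSD2∆IE. Gpat3, Agpat2 and Lpin2, enzymes of the glycerol phosphate route to triglyceride, were among them too. The list of this step held 9 tested genes, and Gpam, Gpat4, Agpat1, Agpat3, Lpin1 and Lpin3 did not share the pattern. Gpam was lowest in NSD2fl/fl replicate 2, with 58.4, 30.5 and 38.6 CPM in NSD2fl/fl and 58.3, 38.4 and 47.5 CPM in NSD2∆IE. Gpat3 had 213, 1163 and 118 counts in NSD2fl/fl and 320, 958 and 796 counts in NSD2∆IE. Prap1, a lipid-binding protein that aids the loading of lipoproteins, went furthest, with 4, 2217 and 8 counts in NSD2fl/fl and 48, 1526 and 621 counts in NSD2∆IE. Among the transcription factors, Cdx2, a regulator of intestinal identity, had 77.2 CPM, 305 CPM and 90.1 CPM in NSD2fl/fl and 93.3 CPM, 263 CPM and 242 CPM in NSD2∆IE. Ppara had 26.6 CPM, 101.6 CPM and 10.6 CPM in NSD2fl/fl and 25.3 CPM, 98 CPM and 52.9 CPM in NSD2∆IE. Hnf4a, a nuclear receptor that drives many enterocyte lipid genes, did not share this pattern and ranged from 788 to 1107 CPM.

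Most of the genes with the largest level per length in each step varied less. P4hb, the partner subunit of MTTP, had a mean of 291 FPKM and ranged 1.52-fold between libraries. Surf4, a cargo receptor for lipoprotein export, had 99.6 FPKM, and Sar1b, the small GTPase of the chylomicron transport vesicle, had 64.7 FPKM. Agpat2, which ranged 2.47-fold, had 74.4 FPKM, Pnpla2, the main triglyceride lipase of lipid droplets, 46.7 FPKM, Acsl5, an acyl-CoA synthetase, 44.2 FPKM, Hnf4a 198 FPKM and Apoe, made by several cell types, 152 FPKM. Fold changes of these 8 genes lay between -0.23 and 0.15 on the log2 scale, with adjusted p-values of at least 0.661.

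Between the genotypes, 1 of the 48 genes was higher and 3 were lower at the looser threshold, and 0 had an adjusted p under 0.05. The share higher was below the 8.05% of all genes and the share lower above the 2.21%, and neither difference was tested. The median log2 fold change of the 48 genes was -0.051. Without overlap between the groups, 4 of the 48 lay higher in NSD2∆IE (Creb3l3, Slc27a2, Lpin1 and Apoe) and 4 lower (Apobec1, Ppard, Agpat1 and Abhd5). Among all genes tested these shares were 11.4% and 7.28%, so such separation is near the background. Apobec1, the deaminase that edits Apob mRNA, had 55.7, 65.9 and 92.5 CPM in NSD2fl/fl and 51.7, 39 and 35.5 CPM in NSD2∆IE. Its groups did not overlap. On the log2 scale the change was -0.76 (SE 0.228, adjusted p = 0.323), and the unadjusted p of 0.0128 stayed under 0.05 in all 16 alternatives. A1cf, its RNA-binding partner, had a log2 fold change of -0.23 (SE 0.278). Ppard, a fatty acid receptor, had 203, 278 and 205 CPM in NSD2fl/fl and 154, 169 and 147 CPM in NSD2∆IE. It too separated the groups. On the log2 scale the change was -0.55 (SE 0.158, adjusted p = 0.317), and every alternative kept the unadjusted p under 0.05. Gata6, a factor of gut epithelium, had a log2 fold change of -0.35 (unadjusted p = 0.0361) with overlap between the groups, and the p stayed under 0.05 in only 7 of 16 alternatives. It was 0.146 with library totals, and 0.0844 to 0.128 without NSD2fl/fl replicate 1 or 2 or NSD2∆IE replicate 2 or 3. Creb3l3, which drives apolipoprotein genes, was higher in every NSD2∆IE library, with 118, 320 and 124 counts in NSD2fl/fl and 369, 556 and 394 counts in NSD2∆IE. Its log2 fold change was 1.08 (SE 0.444, adjusted p = 0.441), and without NSD2fl/fl replicate 2 it was 1.74. Its unadjusted p of 0.0471 rose above 0.05 when any 1 of the other 5 libraries was left out, to at most 0.139. Epithelial markers were read beside the lower genes. All 10 had a fitted fold change below 0, and 0 of them were past the threshold. Of the 10, 3 (Epcam, Cdh1 and Cdx1) were lower in every NSD2∆IE library, where 7.28% of all genes tested were. Their sums overlapped, at 13599 to 22305 CPM in NSD2fl/fl and 13004 to 14975 CPM in NSD2∆IE for the 10 markers. The part of epithelial content in these differences was not tested.

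**Figure D4:**
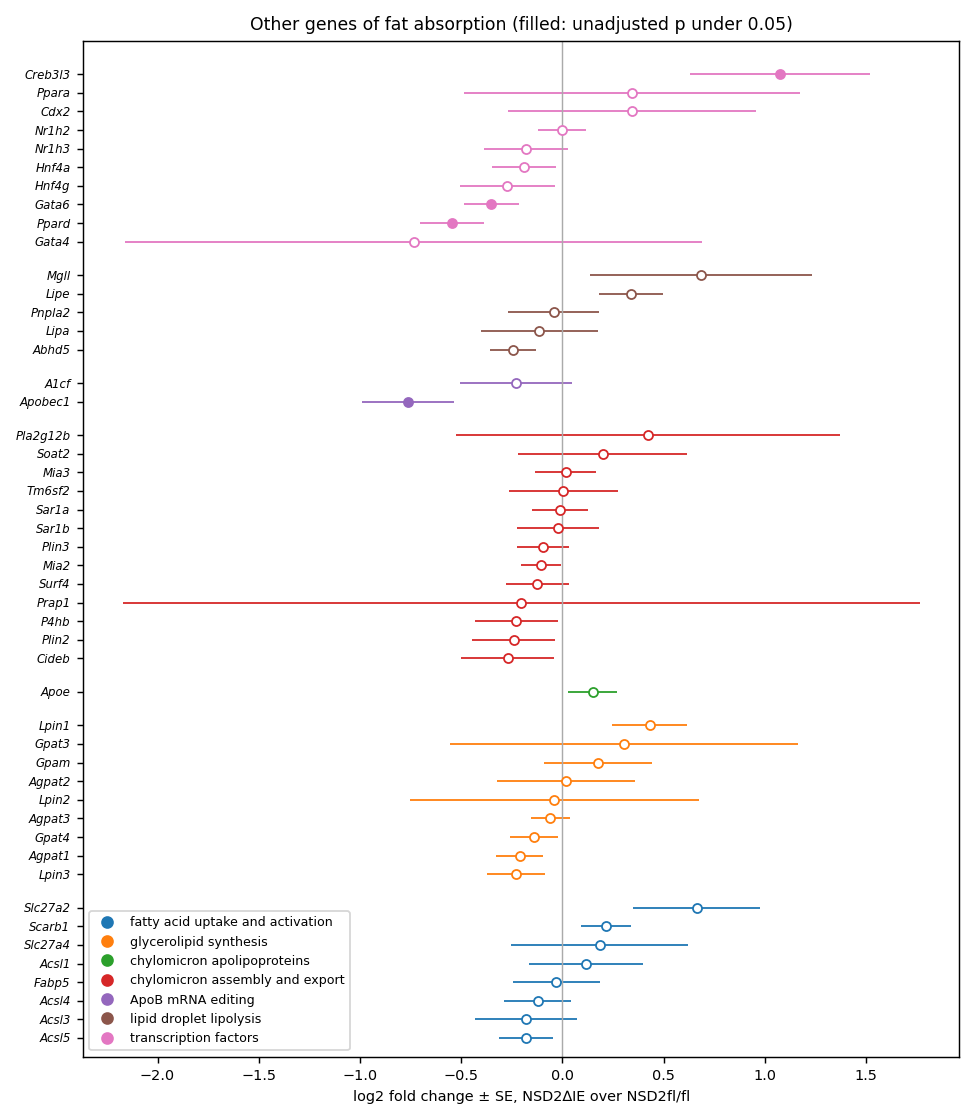
Log2 fold change ± SE of NSD2∆IE over NSD2fl/fl for the 48 tested further genes of fat absorption, coloured by step. Filled points have an unadjusted p under 0.05 (Creb3l3 higher, and Apobec1, Ppard and Gata6 lower); the wide bars of Prap1, Gata4, Gpat3 and Ppara belong to genes that differed between libraries of 1 genotype.

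Marker lists of other sources of these transcripts were read in the same way. Small intestinal markers summed to 293 to 1383 CPM in NSD2fl/fl and 522 to 1429 CPM in NSD2∆IE, highest in replicate 2 of both groups, where Fabp2 was also highest. Of these 10 markers 8 were tested, 7 with a fold change above 0 and a median of 1.01 (log2), and 1 was past the threshold, higher in NSD2∆IE. At that threshold 8.05% of all genes tested were higher and 2.21% lower, and the marker counts below stand beside the same shares. Sis, the sucrase-isomaltase of the brush border, had 35, 892 and 2 counts in NSD2fl/fl and 20, 1861 and 343 counts in NSD2∆IE. Alpi, the intestinal alkaline phosphatase, had 110, 1332 and 45 counts in NSD2fl/fl and 269, 1802 and 1133 counts in NSD2∆IE. Mep1a was the largest part of the sum in replicate 2 of both groups, at 836 CPM in NSD2fl/fl and 678 CPM in NSD2∆IE. Slc5a1 did not follow, with 192, 192 and 152 CPM in NSD2fl/fl and 158, 160 and 122 CPM in NSD2∆IE. Lct, the lactase of small intestinal enterocytes, had at most 4 counts and Treh at most 14 counts, and these 2 were not tested. Posterior Hox genes summed to 11.2 to 414 CPM and 23.5 to 344 CPM, lowest in the same 2 libraries, with 0 of 6 past the threshold. Hoxb13 made up most of the larger sums, and Hoxd10 ran the other way, with 159 and 361 counts in replicate 2 of the 2 groups against 61 to 127 counts elsewhere. Colonocyte markers summed to 4447 to 13637 CPM and 6337 to 11893 CPM, with 1 of 10 past the threshold, lower in NSD2∆IE. Car1 made up most of the larger sums, with 7837 CPM in NSD2fl/fl replicate 2 and 8057 CPM in NSD2∆IE replicate 2. Slc51a, Slc51b, Cdhr5 and Guca2a were also highest in the libraries of low Hoxb13. Slc26a3 ran the other way, with 639, 298 and 587 CPM in NSD2fl/fl and 1061, 319 and 371 CPM in NSD2∆IE, and so did Aqp8. Hepatocyte markers summed to 7.63 to 53 CPM and 8.02 to 46.6 CPM, mainly from Ttr, with 1849, 62 and 1397 counts in NSD2fl/fl and 1664, 159 and 277 counts in NSD2∆IE, low in the libraries of low Hoxb13. Of the 5 tested, Cyp2e1 (14 to 226 counts) was higher and Alb (14 to 103 counts) lower at the looser threshold, and Fgb had at most 5 counts. Of the pancreatic acinar list, Pnlip had at most 1 count. Its sum of 69.1 to 365 CPM and 70.3 to 298 CPM came mainly from Cela1, with 1792 to 13148 counts, and of its 2 tested genes 1 was lower. The part of position along the colon in the levels of Fabp2, Mogat2, Dgat2 and Fabp1 was not tested.

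The genes most like each member were found by the smallest root mean square difference between log2 CPM values, each centred on its mean over the 6 libraries. They were sought among 13272 tested genes other than the members, with an average log2 CPM of at least 1. Fabp1 (-0.66) and Mttp (0.96) lay below that level, so genes at or below their own level were not searched. Nearest to Fabp2 were Btnl2, Ccl5 and Arnt2, at 0.159 to 0.168. Nearest to Mogat2 were Hpse2, Cpn1 and Slc3a1, at 0.224 to 0.245, and nearest to Dgat2 were Dpep1, Aplp1 and Tpbg, at 0.0339 to 0.115. Dpep1 had 152 CPM, 469 CPM and 160 CPM in NSD2fl/fl and 222 CPM, 392 CPM and 318 CPM in NSD2∆IE, a course almost parallel to Dgat2. Within this pool, Fabp1 had no gene closer than Epop, at 0.446. Nearest to Cd36 were Mras, Kcnma1 and Antxr1, at 0.0218 to 0.0495, and Kcnma1 encodes a potassium channel of smooth muscle. Nearest to Apob were Slco2a1, Efna1 and Tat, at 0.138 to 0.187. Dgat1 (Ocel1, Pheta1 and Bicral) and Mttp (Slc10a6, St8sia4 and Anxa13) had neighbours at 0.0419 to 0.0456 and 0.196 to 0.207. Among the members themselves, the closest pairs were Cd36 with Dgat1 at 0.412, Fabp2 with Mogat2 at 0.417, Cd36 with Mttp at 0.447, Dgat1 with Mttp at 0.48 and Fabp1 with Fabp2 at 0.504. Cd36, Dgat1 and Mttp varied less between libraries than the other tested members, which keeps distances between them smaller. Against all genes tested, the SD of Cd36 was larger than in 61.5% and that of Mttp larger than in 69.2%.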

How the data were processed

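RNA-seq was performed on colon, with 3 NSD2fl/fl and 3 NSD2∆IE libraries. The authors deposited whole-number counts per gene symbol and FPKM values for each library. The submitters' processing notes name fastp, HISAT2, HTSeq, R 3.2.0 and mm10; annotation and strand setting were not given in the sources used here. The deposited FPKM matched the counts divided by 1 gene length and the library total.

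The members and lists were chosen with earlier results of these data known. Counts were tested with edgeR 4.0.16 (R 4.3.3): filterByExpr, TMM factors and the two-sided quasi-likelihood test, with Benjamini-Hochberg adjustment over 16347 genes. SE was obtained as the size of the log2 change over the root of the F statistic. The looser threshold required a log2 change beyond 0.32 in either direction besides an unadjusted p under 0.05. Principal components and distances used log2 CPM with a prior count of 2. Alternatives in scaling or method were RLE factors, upper-quartile factors, library totals, DESeq2 1.42.0 and no filter. From limma 3.58.1 they were limma-voom with sample quality weights, and limma on log2(FPKM + 1) and log2(FPKM + 0.1). Each library was also left out, and a replicate block and the sign of the first principal component were each added as a covariate. The fit was tested on simulated data. Every pair of libraries differed beyond sampling noise (chi-square over degrees of freedom at least 35.5). Named genes are the 10 members, the further genes past the looser threshold or of largest mean FPKM in each step, the 3 nearest genes of each tested member, Nsd2 and marker lists for 10 cell or tissue types; genes shown for their pattern between libraries, Adipoq, A1cf and the single markers quoted were picked after values were seen. Positions are from GENCODE M21 on GRCm38.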

Additional observations from a re-analysis of the deposited data

How the results depend on the processing

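Libraries of 1 genotype differed by up to 18.7-fold in Mogat2, and Apoa1, Apoa4 and other genes had few counts. How far this spread or the depth limited these comparisons was not tested. No member had an adjusted p under 0.05 in any of the 16 alternatives to the fit. The median log2 fold change of the members lay between 0.0034 and 0.69 when 1 library was left out. The number of members higher at the looser threshold (log2 change beyond 0.32, unadjusted p under 0.05), 1 (Cd36), was 2 with limma-voom, which added Fabp1, and 0 without a filter, at a fold change over 1.5 and with the principal component as covariate. It ranged from 0 to 4 when 1 library was left out, with 4 (Fabp1, Fabp2, Mogat2 and Dgat2) in the absence of NSD2fl/fl replicate 2 and 0 in that of NSD2fl/fl replicate 3 or NSD2∆IE replicate 2 or 3. The number lower, 0, was 1 (Apob) with the covariate and ranged from 0 to 1 when 1 library was left out, being 1 when NSD2fl/fl replicate 3 was absent. Of the further genes, 1 was higher, against 3 with upper-quartile factors, library totals, DESeq2, limma-voom and both FPKM fits and 2 with the covariate. That number ranged from 0 to 11 when 1 library was left out, with 11 in the absence of NSD2fl/fl replicate 2, 2 in that of NSD2fl/fl replicate 1 and 0 in that of replicate 3 of either group. The number lower, 3, was within 2 to 4 throughout. The causes were not tested, beyond the fewer samples and the stricter fold change.

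Dgat1 turned positive, at 0.029 with upper-quartile factors, 0.084 with library totals, 0.086 with log2(FPKM + 1) and 0.093 with log2(FPKM + 0.1), and ranged from -0.16 to 0.059 when 1 library was left out. Over all genes the median was -0.041, and 0.086 with library totals. Mogat2 ranged from -0.022 to 3.29 when 1 library was left out, with -0.0021 in the absence of NSD2fl/fl replicate 1. The other 6 tested members kept their sign in all 16 alternatives.

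With the replicate number as a block, 1 member was higher (Fabp1 in place of Cd36), 1 was lower (Apob, unadjusted p = 0.00537) and 3 further genes were higher. The correlation between same-numbered libraries, each taken as its deviation from its group mean, was 0.501, 0.643 and -0.166, and the numbers were not treated as pairs.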

Other observations

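Another fatty acid binding protein of the gut parted from Fabp2 in 1 library. Fabp6, the ileal bile acid binding protein, had 105, 141 and 106 counts in NSD2fl/fl and 170, 8884 and 2635 counts in NSD2∆IE. NSD2fl/fl replicate 2, the library of highest Fabp2, thus had Fabp6 at the level of the libraries of high Hoxb13. Slc10a2, the bile acid importer of the same ileal cells, had 37, 9078 and 14 counts in NSD2fl/fl and 251, 7926 and 2545 counts in NSD2∆IE, and was high in NSD2fl/fl replicate 2. The fitted log2 fold change was 4.91 (SE 1.26, adjusted p = 0.303, edgeR) for Fabp6 and 0.05 (SE 2.05, adjusted p = 0.995) for Slc10a2. Fabp6 was picked from the small intestinal list after its values were seen.

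Fabp4, the adipocyte type, was higher in every NSD2∆IE library, with 13.6, 11.4 and 14.7 CPM in NSD2fl/fl and 24.8, 23 and 37.8 CPM in NSD2∆IE (log2 fold change 1.11, SE 0.222, adjusted p = 0.302). Fabp5, the epidermal type, had a log2 fold change of -0.03 (SE 0.216). Cidec, a lipid droplet protein listed with the adipocyte markers, did not follow Fabp4. It had 26, 658 and 90 counts in NSD2fl/fl and 129, 731 and 603 counts in NSD2∆IE, the pattern of Fabp2 and Dgat2.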
